A study of Caenorhabditis elegans with 24 samples.

Results

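The p38 kinase cascade of Caenorhabditis elegans and its best known intestinal readouts were followed across 8 groups of adult animals. The 10 genes were taken by name, with earlier results of these data known. They were matched by their WormBase identifier and are 10 of the 46778 gene rows of each deposited table. Of these, 5 are the cascade and its transcription factor (tir-1, nsy-1, sek-1, pmk-1 and atf-7) and 5 are targets (K08D8.5, C17H12.8, irg-4, irg-5 and mul-1). All 10 passed the filter on low counts in every fit, although mul-1 did so in some comparisons only through groups outside the comparison.

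In the worm intestine, the adaptor TIR-1, an orthologue of the mammalian SARM1 protein, activates the MAP kinase kinase kinase NSY-1, which activates the kinase SEK-1 and then the p38 kinase PMK-1. PMK-1 phosphorylates the bZIP transcription factor ATF-7 and thereby turns it from a repressor into an activator of immune effector genes. The cascade is controlled mainly by phosphorylation, so transcript levels of its kinases are not a measure of its activity, while transcripts of its targets are commonly used as a readout of it.

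RNA of whole animals was sequenced in 24 libraries, 3 per group, to ask what loss of ceh-60 does to transcript levels, alone and together with pqm-1 mutations. CEH-60 is a homeodomain transcription factor related to PBX proteins, and PQM-1 is a zinc finger factor that also acts in the intestine. Wild type animals (strain N2) and ceh-60(ok1485) animals (strain DLS357) were taken on day 1 and on day 4 of adulthood. The 4 other groups, all of day 1, were pqm-1(ok485) (strain DLS421), pqm-1(rhd90) (strain DLS424), ceh-60(ok1485) with pqm-1(ok485) (strain DLS420, called the ok485 double mutant) and ceh-60(ok1485) with pqm-1(rhd90) (strain DLS423, called the rhd90 double mutant). No label names a pathogen, and the growth protocol of the wild type and ceh-60 groups names OP50 bacteria as food. The labels do not say what each allele changes in its gene, and each genotype is represented by 1 strain. Whether the replicates were separate cultures is not stated either, so a p-value here reflects the spread among these libraries, which may be technical.

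Between 18809461 and 32598349 reads were counted on genes in each library, and no replicate repeated another. The ceh-60 transcript was lower wherever ok1485 was compared with its control, with log2 fold changes of -2.19 on day 1, -2.78 on day 4, -2.71 with pqm-1(ok485) and -2.38 with pqm-1(rhd90). The pqm-1 transcript was at 10.8 ± 0.371 CPM (SD, n = 3) in wild type day 1, 5.99 ± 0.259 in pqm-1(ok485) and 14.9 ± 1.06 in pqm-1(rhd90). Wild type and ceh-60 libraries were deposited in 1 table and the libraries with a pqm-1 allele in another, so the table and the pqm-1 genotype cannot be told apart where a comparison crosses them. Levels in CPM (reads per 1000000 counted) are scaled jointly over the 24 libraries, whereas log2 fold changes, with their SE, come from edgeR's quasi-likelihood test within the libraries of each fit. A gene passed at a Benjamini-Hochberg adjusted p under 0.05 over all genes tested, and every adjusted p below is from that test unless another is named.

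Per kilobase of exon, the cascade genes lay between 2.49 and 14.1 CPM per kb in wild type day 1, apart from atf-7 at 99.5 ± 1.89 (SD, n = 3). atf-7 (WBGene00000223, chromosome III, 4491627 to 4499043, reverse strand; coordinates here and below are those of the count tables, made with WormBase release 260) varied little across the groups, with a ratio of 1.19 between the highest and the lowest group mean. Its libraries ran from 227.9 CPM in pqm-1(ok485) replicate 1 to 291.2 in wild type day 4 replicate 1, and each group overlapped its neighbour in the order of mean levels. Among the targets in wild type day 1, C17H12.8 was the most abundant per length at 50.8 ± 10.8 CPM per kb and mul-1 the least at 0.293 ± 0.0215.

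**Figure D1:**
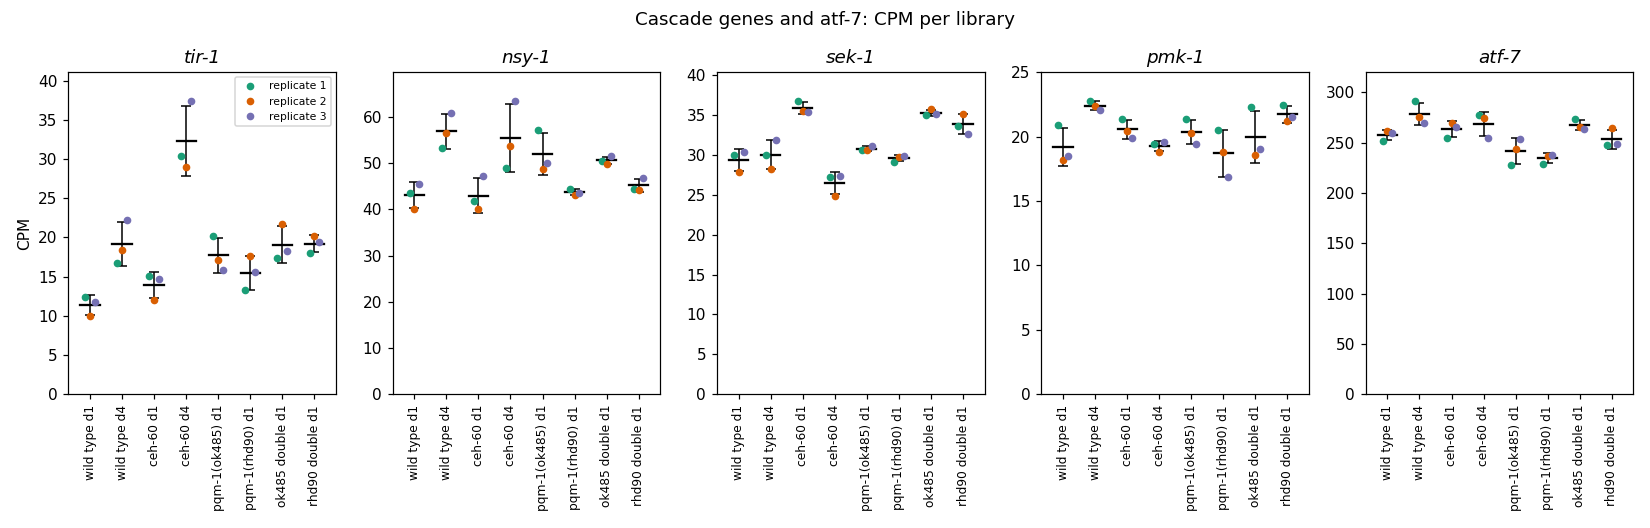
Level (CPM, linear axis from 0) of the 5 cascade genes in each library, by group on the horizontal axis. Points are libraries coloured by replicate number, and bars are the mean ± SD of 3 libraries. The ceh-60 day 4 libraries of tir-1 lie above all other libraries of that gene, at 29.0 to 37.4 CPM, while the groups of atf-7 lie close together.

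With loss of ceh-60, 4 of the 5 targets rose in all 4 comparisons, while no cascade gene passed in all 4 comparisons. The share of all genes that rose in all 4 was not computed. Here and below, counts of genes higher in all 4 comparisons thus have only the shares of single comparisons beside them. On day 1, 5 of the 10 genes passed, all higher in the mutant, where 25.5% of all genes tested passed and 16.1% were higher. On day 4, 5 were higher and 1 lower, against 24.4% of all genes passing, 16.1% higher and 8.24% lower. With pqm-1(ok485) 5 were higher (8.97% of all genes passed, 4.76% higher), and with pqm-1(rhd90) 5 were higher (11.9% passed, 9.79% higher). These targets were K08D8.5, C17H12.8, irg-4 and mul-1. In the comparison with pqm-1(rhd90), mul-1 had only 1 to 9 reads per library and passed the filter through other groups of the fit. Over the 20 values of the targets in these comparisons the log2 fold changes ran from 0.64 to 3.52, and over the 20 of the cascade from -0.19 to 0.78, so the ranges overlapped. The difference between the 2 sets of genes was not tested.

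tir-1 (WBGene00006575, chromosome III, 3869591 to 3901466, reverse strand), the adaptor at the top of the cascade, rose with ceh-60 loss on day 4. Its CPM were 16.7, 18.4 and 22.2 in wild type day 4 and 30.4, 29.0 and 37.4 in the mutant. All 3 mutant libraries lay above the 3 of wild type, with a log2 fold change of 0.78 ± 0.13 (adjusted p = 0.000577). On day 1 its CPM were 12.4, 9.91 and 11.8 in wild type and 15.1, 12.1 and 14.7 in the mutant, groups that overlapped, and the change of 0.28 ± 0.14 did not pass (adjusted p = 0.153, 95% interval -0.04 to 0.60). With the replicate number as a block within each day, a fit added after the data had been seen, that change was 0.28 with adjusted p = 0.00918. Without a block it did not pass whichever library was left out (adjusted p 0.0768 to 0.403). In pqm-1(rhd90) animals the change was 0.33 ± 0.12 (adjusted p = 0.118), and 0.34 with a block within each allele, also added later (adjusted p = 0.0478), while in pqm-1(ok485) it was 0.08 ± 0.12 (adjusted p = 0.724, 95% interval -0.20 to 0.36).

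nsy-1 (WBGene00003822, chromosome II, 5022764 to 5029982, forward strand), the MAP kinase kinase kinase, passed in none of the 4 comparisons of ceh-60 loss. Its CPM were 43.6, 40.0 and 45.6 in wild type day 1 and 41.8, 40.0 and 47.2 in the ceh-60 mutant, with the ranges overlapping almost wholly. The log2 fold changes were -0.03 ± 0.10 on day 1, -0.01 ± 0.09 on day 4, -0.06 ± 0.06 with pqm-1(ok485) and 0.07 ± 0.06 with pqm-1(rhd90), and the 4 intervals together span -0.25 to 0.22. Of its 5037 exon bases, 41 are shared with wdr-83 on the opposite strand, and since strand was not counted, reads that lie there were left out as ambiguous.

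sek-1 (WBGene00004758, chromosome X, 7816720 to 7821045, forward strand), the MAP kinase kinase, rose slightly with ceh-60 loss in each comparison of day 1 animals. Its CPM on day 1 were 29.97, 27.8 and 30.3 in wild type and 36.7, 35.5 and 35.3 in the mutant, without overlap. The log2 fold changes were 0.26 ± 0.06 in that comparison (adjusted p = 0.0069), 0.18 ± 0.05 with pqm-1(ok485) (adjusted p = 0.0376) and 0.22 ± 0.05 with pqm-1(rhd90) (adjusted p = 0.00947). The call with pqm-1(ok485) was not firm: it was lost on leaving out any of 11 of the 12 libraries (all but replicate 2 of the rhd90 double mutant; adjusted p up to 0.125) and with a block within each allele (adjusted p = 0.0624), and that with pqm-1(rhd90) was lost without replicate 1 of pqm-1(rhd90) (adjusted p = 0.07) and with no filter on low counts (adjusted p = 0.0904).

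On day 4 the sign of sek-1 was the opposite. CPM were 29.95, 28.2 and 31.8 in wild type and 27.3, 24.9 and 27.3 in the mutant, so that every mutant library lay below every wild type library. The log2 fold change of -0.15 ± 0.06 did not pass (adjusted p = 0.0857, 95% interval -0.29 to -0.01), although it did with the replicate number as a block (-0.15, adjusted p = 0.0499), with that block within each day (adjusted p = 0.0248) with RLE size factors (-0.18, adjusted p = 0.0428) and without replicate 2 of wild type day 4 (-0.22, adjusted p = 0.0406).

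pmk-1 (WBGene00004055, chromosome IV, 8148794 to 8151156, forward strand), the p38 kinase itself, was lower without ceh-60 on day 4. Its CPM were 22.8, 22.4 and 22.03 in wild type and 19.5, 18.8 and 19.6 in the mutant, without overlap, and the log2 fold change was -0.19 ± 0.06 (adjusted p = 0.0409). That call was lost on leaving out replicate 1 or 2 of either day 4 group (adjusted p between 0.0657 and 0.0845) and with no filter on low counts (adjusted p = 0.094). On day 1 the CPM were 20.9, 18.2 and 18.5 in wild type and 21.3, 20.4 and 19.9 in the mutant, groups that overlapped (0.08 ± 0.06, adjusted p = 0.382, 95% interval -0.07 to 0.22). With pqm-1(rhd90) the change was 0.24 ± 0.09 (adjusted p = 0.117) and passed with the replicate number as a block (0.24, adjusted p = 0.0291). With pqm-1(ok485) it was -0.05 ± 0.09 (adjusted p = 0.769, 95% interval -0.25 to 0.16).

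atf-7, the transcription factor at the end of the cascade, passed in none of the 4 comparisons. Its CPM were 252.1, 261.3 and 259.5 in wild type day 1 and 254.4, 269.8 and 266.0 in the mutant, and the day 4 groups overlapped as well. The log2 fold changes were 0.01 ± 0.04 on day 1 (95% interval -0.09 to 0.11), -0.03 ± 0.04 on day 4, 0.13 ± 0.04 with pqm-1(ok485) (adjusted p = 0.107) and 0.14 ± 0.05 with pqm-1(rhd90) (adjusted p = 0.0727). DESeq2 called the change with pqm-1(ok485) (0.15, adjusted p = 0.048).

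**Figure D2:**
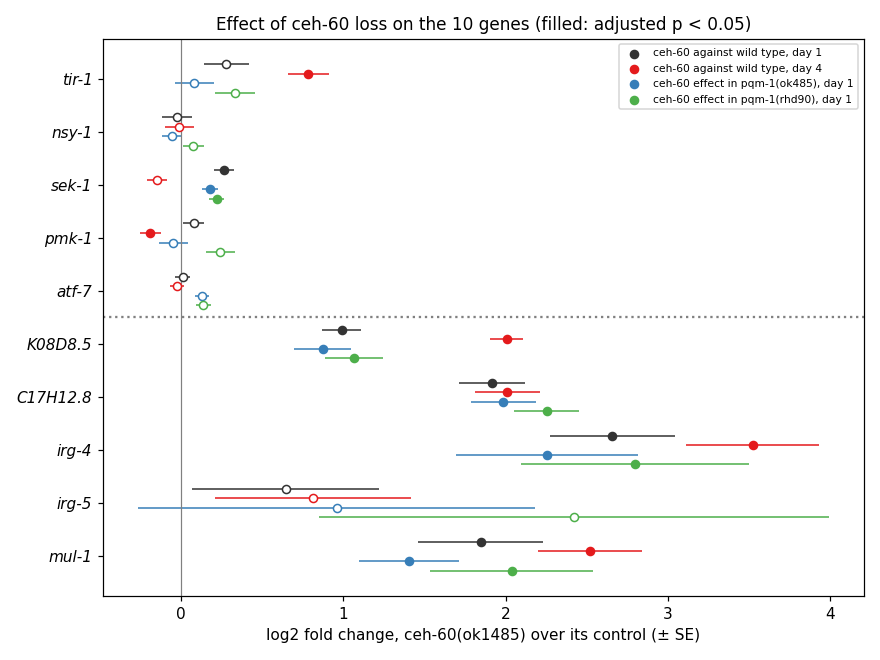
Log2 fold change (± SE, from edgeR) of each of the 10 genes in ceh-60(ok1485) animals over their control in 4 comparisons, shown by colour. Filled points passed at an adjusted p under 0.05, and the dotted line parts the cascade from the targets. Cascade values lie between -0.19 and 0.78 and target values between 0.64 and 3.52.

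C17H12.8 (WBGene00015933, chromosome IV, 6818606 to 6820643, forward strand) encodes a protein with a CUB-like domain, a domain found in many infection-induced worm proteins. On day 1 its CPM were 58.1, 79.7 and 54.6 in wild type and 242.1, 270.5 and 227.7 in the ceh-60 mutant. Each mutant library was far above each wild type library, a 3.78-fold rise (log2 1.92 ± 0.20, adjusted p = 1.6e-05). In whole-animal RNA, more cells of a type and more RNA per cell cannot be told apart. The summed level of 8 intestinal markers, none of them at 0 in any group, was 759.2 to 976.4 CPM in wild type day 1 and 1292 to 1877 in the mutant. Of the 8, 6 rose, against 16.1% of all genes tested, and their part in the changes of the targets was not tested.

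On day 4 C17H12.8 was at 63.1, 69.6 and 103.7 CPM in wild type and 245.1, 304.1 and 383.4 in the mutant, again without overlap, a 4.03-fold rise (log2 2.01 ± 0.20, adjusted p = 8.81e-06). The intestinal markers, 7 of 8 of which rose (16.1% of all genes tested), summed to 256.8 to 266.1 CPM in wild type day 4 and 519.1 to 562.1 in the mutant. In pqm-1(ok485) C17H12.8 was at 66.99, 97.4 and 88.7 CPM, against 270.0, 393.5 and 349.7 in the ok485 double mutant (log2 1.99 ± 0.20, adjusted p = 3.51e-05). The 4.76-fold rise with pqm-1(rhd90), from 60.8, 103.8 and 94.0 CPM to 377.8, 371.0 and 461.4, was the largest estimate of the 4 for this gene (log2 2.25 ± 0.20, adjusted p = 9.95e-06). Across all 24 libraries the 12 with ceh-60(ok1485) thus lay at 227.7 CPM or above and the 12 without it at 103.8 or below. In the pqm-1 backgrounds, 5 of the 8 intestinal markers rose with ok485, to sums of 2011 to 2404 CPM from 1400 to 1522, and 6 with rhd90 (3 without replicate 1 or 3 of pqm-1(rhd90)), to 1769 to 1983 from 1186 to 1404. Of all genes tested, 4.76% rose with ok485 and 9.79% with rhd90.

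K08D8.5 (WBGene00010659, chromosome IV, 12910647 to 12912145, reverse strand), another CUB-like domain gene, depended on both genotype and age. On day 1 its CPM were 6.13, 6.91 and 5.90 in wild type and 14.9, 10.4 and 13.0 in the mutant, without overlap, a 1.98-fold rise (log2 0.99 ± 0.12, adjusted p = 4.77e-05). On day 4 they were 15.4, 13.96 and 15.6 in wild type and 57.9, 59.3 and 60.03 in the mutant. The mutant libraries of day 4 were the highest of all 24 and close to each other, a 4.02-fold rise over wild type (log2 2.01 ± 0.10, adjusted p = 2.31e-08).

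Among the libraries with pqm-1(ok485), K08D8.5 was at 6.57, 9.27 and 6.87 CPM with ceh-60 intact and at 11.1, 16.5 and 14.5 without it (log2 0.87 ± 0.18, adjusted p = 0.00725). With pqm-1(rhd90) it went from 5.40, 7.90 and 6.08 to 12.1, 14.1 and 13.8 (log2 1.07 ± 0.18, adjusted p = 0.00145). In both backgrounds every double mutant library lay above every library of its pqm-1 control.

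irg-4 (WBGene00008584, chromosome IV, 12435802 to 12438274, forward strand), an infection response gene that also encodes a CUB-like domain protein, showed the largest rises of the 10 genes, and varied much between replicates. On day 1 its CPM were 6.73, 3.95 and 8.07 in wild type and 47.2, 18.7 and 54.02 in the mutant, a 6.31-fold rise (log2 2.66 ± 0.39, adjusted p = 0.000236). On day 4 they were 2.87, 2.04 and 4.76 in wild type and 38.2, 25.9 and 42.2 in the mutant, an 11.5-fold rise (log2 3.52 ± 0.41, adjusted p = 3.71e-05). In both ages replicate 2 was the lowest of its group, and the groups did not overlap.

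With pqm-1(ok485), irg-4 rose from 29.5, 18.4 and 19.6 CPM to 190.2, 66.8 and 73.8 (log2 2.26 ± 0.56, adjusted p = 0.0244), and with pqm-1(rhd90) from 6.43, 1.91 and 3.09 to 48.8, 7.55 and 20.0 (log2 2.80 ± 0.70, adjusted p = 0.0195). Groups did not overlap in either case, although replicate 1 stood above the other two in all 4 groups. The first call was lost without replicate 2 or 3 of pqm-1(ok485) or replicate 1 of the ok485 double mutant (adjusted p between 0.0739 and 0.121). The second was lost without replicate 2 or 3 of pqm-1(rhd90) or replicate 1 of the rhd90 double mutant (adjusted p between 0.0816 and 0.11).

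mul-1 (WBGene00018646, chromosome IV, 4121342 to 4123166, reverse strand), which encodes a mucin-like protein, was the rarest of the 10, with 1 to 92 reads per library. On day 1 it was counted 7, 6 and 6 times in the wild type libraries and 28, 16 and 27 times in the mutant, and on day 4 8, 14 and 16 times in wild type and 92, 48 and 68 times in the mutant. Mutant libraries of each day lay above those of wild type in CPM, at 0.666 to 1.29 against 0.258 to 0.298 on day 1 and at 1.95 to 3.34 against 0.310 to 0.646 on day 4. The log2 fold changes were 1.85 ± 0.39 (adjusted p = 0.00374) and 2.52 ± 0.32 (adjusted p = 8.29e-05).

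With pqm-1(ok485), mul-1 was counted 12, 13 and 19 times, and 38, 41 and 44 times in the ok485 double mutant (log2 1.40 ± 0.31, adjusted p = 0.0122), a call lost without replicate 3 of the double mutant (adjusted p = 0.0515). In pqm-1(rhd90) it was counted 2, 2 and 1 times, and 9, 8 and 8 times in the rhd90 double mutant. By summed counts that was a ratio of 4.21 (95% interval 1.58 to 14.1, counting error only), and the edgeR call (adjusted p = 0.0177) was lost under DESeq2 (adjusted p = 0.0675) and without replicate 1 or 3 of pqm-1(rhd90) (adjusted p = 0.0503 and 0.0892). The groups did not overlap in CPM, but mul-1 passed the filter of that fit only through its higher counts in the groups with pqm-1(ok485).

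**Figure D3:**
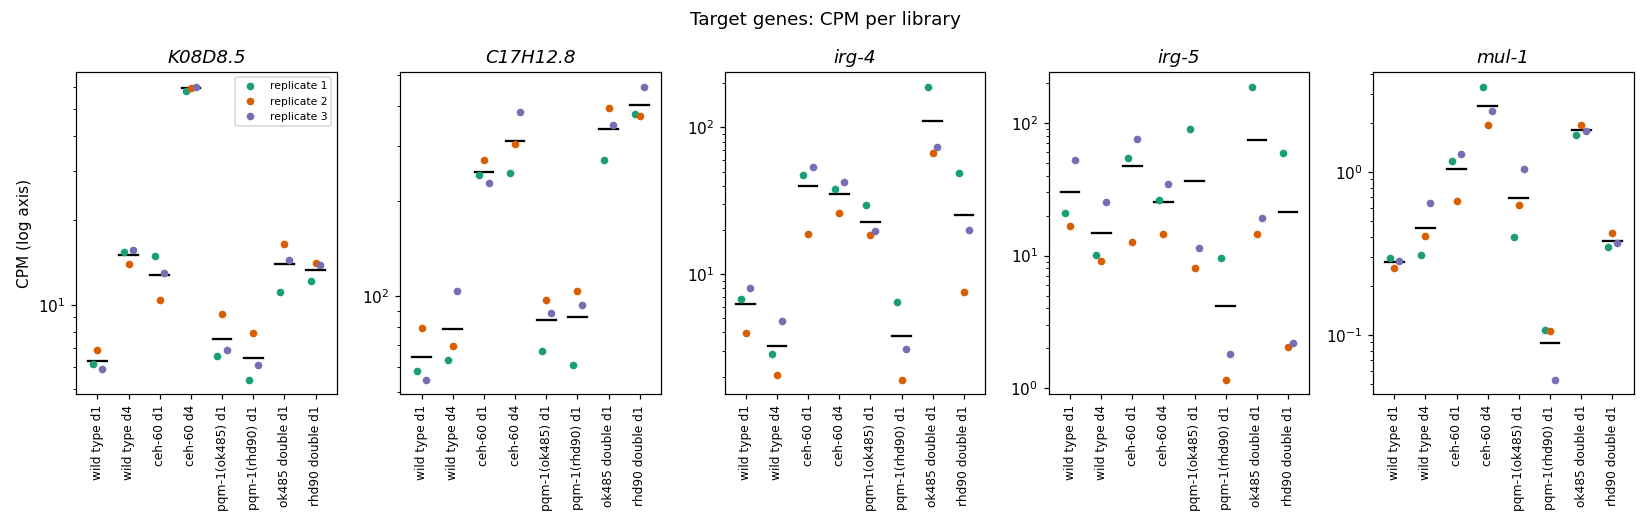
Level (CPM, log axis) of the 5 targets in each library, by group. Points are libraries coloured by replicate number and bars are means of 3. C17H12.8 lies at 227.7 CPM or above in the 12 libraries with ceh-60(ok1485) and at 103.8 or below in the others, K08D8.5 is highest in ceh-60 day 4, and irg-5 is high in replicate 1 of each pqm-1 group.

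irg-5 (WBGene00009429, chromosome V, 13737007 to 13738474, reverse strand), a further CUB-like infection response gene, was the target that passed in none of the 4 comparisons without a replicate block. On day 1 its CPM were 21.0, 16.8 and 52.1 in wild type and 54.6, 12.7 and 75.2 in the mutant, and on day 4 10.1, 9.14 and 25.2 in wild type and 26.1, 14.4 and 34.8 in the mutant. The groups of each day overlapped. The log2 fold changes were 0.64 ± 0.58 (adjusted p = 0.42, 95% interval -0.69 to 1.98) and 0.81 ± 0.61 (adjusted p = 0.351, 95% interval -0.59 to 2.21).

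In the pqm-1 groups, replicate 1 of irg-5 stood far above replicates 2 and 3. CPM were 89.0, 8.12 and 11.4 in pqm-1(ok485), 187.1, 14.5 and 19.03 in its double mutant, 9.56, 1.17 and 1.81 in pqm-1(rhd90) and 59.1, 2.06 and 2.20 in the rhd90 double mutant. Replicate 1 was thus 6.42 to 27.7 times the mean of the other two, against 0.587 to 1.24 times in the wild type and ceh-60 groups. Of 8312 genes with a mean of at least 5 CPM in the pqm-1 libraries, 2 (0.0241%) had replicate 1 at least 3-fold above both others in all 4 groups, irg-5 and the metallothionein gene mtl-2, and none had replicate 2 or 3 so placed. That search was made after the values of irg-5 had been seen.

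Within a replicate number, irg-5 was higher without ceh-60 in 11 of 12 pairs of libraries, and K08D8.5, C17H12.8, irg-4 and mul-1 in 12 of 12. The exception was replicate 2 of day 1, with a ratio of 0.757. With the replicate number as a block, irg-5 passed on day 4 (0.82, adjusted p = 0.0455), with pqm-1(ok485) (0.92, adjusted p = 0.00608) and with pqm-1(rhd90) (2.10, adjusted p = 0.000135). With pqm-1(rhd90) the ratios in numbers 1 to 3 were 6.18, 1.77 and 1.22, so the size of that change rested largely on the first pair. Without the block, irg-5 passed in neither pqm-1 background, whichever library was left out. Its log2 fold change then ran from -1.16 to 2.91 with ok485 (adjusted p 0.319 to 0.842) and from -0.95 to 3.87 with rhd90 (adjusted p 0.29 to 0.834). In these fits, which ignored the replicate number, even its sign depended on which library was left out. Within replicate numbers the sign was the same throughout, as the ratios with pqm-1(ok485) were 2.1, 1.79 and 1.67.

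**Figure D4:**
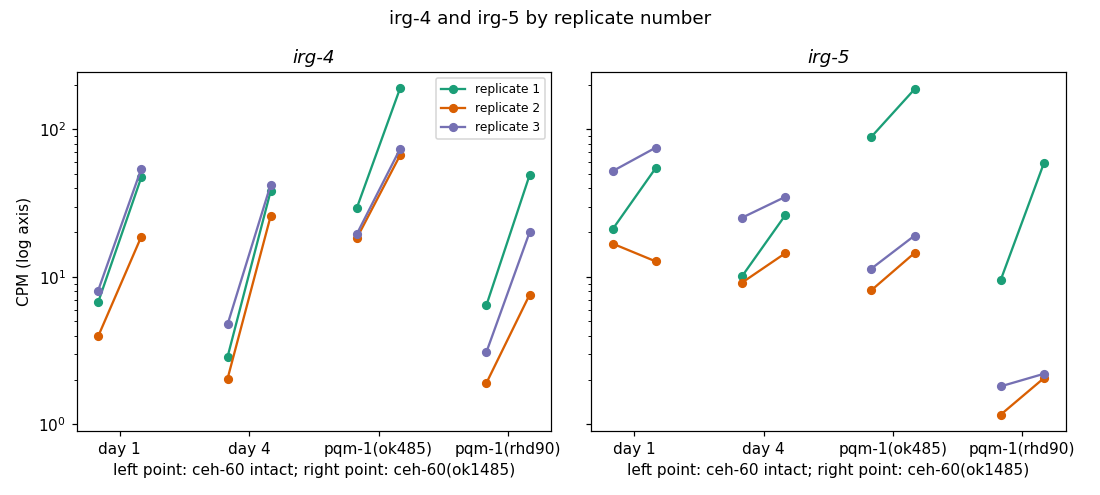
Level (CPM, log axis) of irg-4 and irg-5, with lines that join libraries of the same replicate number, from the control with ceh-60 intact (left point) to ceh-60(ok1485) (right point), on day 1 and day 4 and in the pqm-1(ok485) and pqm-1(rhd90) backgrounds on day 1. All 12 lines rise for irg-4 and 11 of 12 for irg-5.

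The age dependence of the ceh-60 effect was tested as the day 4 effect minus the day 1 effect, and 2 of the 10 genes passed, 1 higher and 1 lower (4.04% of all genes tested passed, 1.82% higher and 2.22% lower). K08D8.5 was raised more on day 4, by a log2 difference of 1.02 ± 0.16 (adjusted p = 0.00273), and the effect on sek-1 was lower on day 4, by -0.42 ± 0.09 (adjusted p = 0.0163). Both calls held on leaving out each of the 12 libraries. C17H12.8 differed by 0.09 ± 0.28 (adjusted p = 0.915, 95% interval -0.55 to 0.73), and irg-4 (0.86 ± 0.57), mul-1 (0.67 ± 0.53) and irg-5 (0.17 ± 0.84) did not pass either.

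With age itself, tir-1, nsy-1 and K08D8.5 rose in both genotypes. In wild type, 4 of the 10 genes were higher on day 4 than on day 1 and none was lower (54.8% of all genes tested passed, 28.4% higher), and in the ceh-60 mutant 4 were higher and 1 lower (52.6% passed, 28.3% higher and 24.3% lower). tir-1 rose with age in wild type (log2 0.74 ± 0.14, adjusted p = 0.000449) and in the mutant (1.24 ± 0.13, adjusted p = 5.09e-06), and nsy-1 rose by 0.38 ± 0.09 (adjusted p = 0.00335) and 0.40 ± 0.09 (adjusted p = 0.00294). K08D8.5 rose 2.34-fold in wild type and 4.73-fold in the mutant. Over the same interval 6 of the 8 intestinal markers fell and 1 rose in wild type, and 6 fell and 2 rose in the mutant.

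Of the other genes, pmk-1 rose with age in wild type (0.20 ± 0.06, adjusted p = 0.0141), a call lost without replicate 2 or 3 of wild type day 1 or replicate 1 of wild type day 4 (adjusted p up to 0.0569). sek-1 fell in the mutant (-0.41 ± 0.06, adjusted p = 0.000102) and was at 0.01 ± 0.06 in wild type (adjusted p = 0.888, 95% interval -0.13 to 0.15). mul-1 rose in the mutant (1.33 ± 0.30, adjusted p = 0.0023). irg-4 in wild type was at -1.002 ± 0.46 (adjusted p = 0.0815), and passed when only the wild type groups were fitted (-0.99, adjusted p = 0.0231) with no filter on low counts (adjusted p = 0.00302) and without replicate 2 of wild type day 1 (adjusted p = 0.0495), replicate 3 of wild type day 4 (adjusted p = 0.0464) or replicate 2 of ceh-60 day 1 (adjusted p = 0.0214). atf-7 in wild type (0.09 ± 0.04, adjusted p = 0.0892) passed without replicate 3 of ceh-60 day 4 (adjusted p = 0.0372), and irg-5 in the mutant (-0.88 ± 0.58, adjusted p = 0.22) without replicate 2 of ceh-60 day 1 (-1.33, adjusted p = 0.0391). irg-5 also passed with no filter, in wild type (-1.04, adjusted p = 0.0135) and in the mutant (-0.91, adjusted p = 0.0249). The values of C17H12.8 were 0.27 ± 0.20 in wild type and 0.36 ± 0.19 in the mutant, neither of which passed (adjusted p = 0.278 and 0.125), although the latter did with no filter (0.33, adjusted p = 0.0177).

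The effect of ceh-60 loss was also compared between animals with and without a pqm-1 allele. None of the 10 genes differed between pqm-1(ok485) and the wild type background by edgeR or DESeq2 (4.43% of all genes tested passed by edgeR), none between pqm-1(rhd90) and the wild type background (0.272%), and 0 of the 10 had an unadjusted p under 0.05 in either test. For C17H12.8 the differences were 0.08 (95% interval -0.53 to 0.69) and 0.32 (-0.29 to 0.92), and for K08D8.5 -0.10 (-0.66 to 0.46) and 0.06 (-0.51 to 0.63). The intervals of irg-4 were wide, from -2.10 to 1.36 and from -1.89 to 2.13, and they do not exclude a difference of 2-fold in either direction.

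The pqm-1 alleles differed from each other in irg-4, mul-1 and nsy-1. With ceh-60 intact, 3 of the 10 genes were lower in pqm-1(rhd90) than in pqm-1(ok485) and none was higher (7.39% of all genes tested passed, 5.72% lower), and between the double mutants 2 were lower (14.3% passed, 6.37% lower). irg-4 was lower by log2 -2.60 ± 0.71 with ceh-60 intact (adjusted p = 0.0441) and by -2.06 ± 0.55 in the double mutants (adjusted p = 0.0258). In the single mutants its highest pqm-1(rhd90) library, at 6.43 CPM, lay below its lowest pqm-1(ok485) library, at 18.4, and in the double mutants the highest, at 48.8, lay below 66.8.

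The first of these irg-4 calls was lost without any of 8 of the 12 libraries, which were all 6 of the compared ones and replicate 3 of each double mutant (adjusted p up to 0.164), and the second without replicate 1 of the ok485 or replicate 3 of the rhd90 double mutant (adjusted p = 0.108 in each case). mul-1 had 5 counts in the pqm-1(rhd90) libraries against 44 in pqm-1(ok485), a ratio of 0.14 (95% interval 0.0432 to 0.351, adjusted p = 0.00543), and 25 against 123 in the double mutants, a ratio of 0.209 (0.13 to 0.323, adjusted p = 0.00151). All libraries of mul-1 were separated by allele in both comparisons, and both calls held on leaving out each library. With only the single mutants fitted, mul-1 did not pass the filter.

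nsy-1 was lower in pqm-1(rhd90) by -0.28 ± 0.06 (adjusted p = 0.021), with 44.4, 43.2 and 43.5 CPM against 57.1, 48.6 and 50.01 in pqm-1(ok485), without overlap. That call was lost on leaving out any replicate of pqm-1(rhd90) (adjusted p between 0.0577 and 0.091) and with only these groups in the fit (adjusted p = 0.0627). In the double mutants the difference of nsy-1 was -0.14 ± 0.06 (adjusted p = 0.154), and it passed without replicate 1 of pqm-1(ok485) (adjusted p = 0.0172) and with only the compared groups (adjusted p = 0.0445). C17H12.8 and K08D8.5 did not pass between the alleles, at 0.01 ± 0.20 (95% interval -0.44 to 0.47) and -0.25 ± 0.19 (95% interval -0.67 to 0.18) with ceh-60 intact. The summed intestinal markers overlapped barely between the single mutants, at 1186 to 1404 CPM in pqm-1(rhd90) and 1400 to 1522 in pqm-1(ok485), and none of the 8 passed. Lower in pqm-1(rhd90) were 2 of 4 epidermis and 1 of 4 body wall muscle markers, and the part of these markers was not tested.

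Comparisons of the pqm-1 strains with wild type and with the ceh-60 mutant cross the 2 tables. Against wild type day 1, 4 of the 10 genes were higher in pqm-1(ok485) (47.7% of all genes tested passed, 26.7% higher), and in pqm-1(rhd90) 1 was higher and 2 lower (28.2% passed, 17.6% higher and 10.5% lower). tir-1 was higher in both, by 0.61 ± 0.12 (adjusted p = 0.0012) and 0.43 ± 0.13 (adjusted p = 0.019). With ok485, nsy-1 (0.24 ± 0.06, adjusted p = 0.00605), irg-4 (1.83 ± 0.61, adjusted p = 0.022) and mul-1 (1.21 ± 0.38, adjusted p = 0.0164) were also higher. Markers of several tissues moved as well. Between pqm-1(ok485) and wild type, 7 of 8 intestinal markers (median 0.62), 4 of 4 epidermis markers (1.88), 4 of 4 pharynx markers (1.76), 2 of 4 body wall muscle markers and 3 of 4 neuron markers were higher, and 2 of 4 germline markers and 1 neuron marker were lower. Summed levels were 1400 to 1522 CPM against 759.2 to 976.4 in wild type for intestine and 1066 to 1254 against 404.3 to 652.6 for epidermis. Between pqm-1(rhd90) and wild type, 7 of 8 intestinal (0.52), 2 of 4 pharynx, 1 of 4 epidermis and 3 of 4 neuron markers were higher and 1 neuron marker was lower. Their part was not tested.

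With rhd90, atf-7 was lower (-0.16 ± 0.05, adjusted p = 0.037), and mul-1 had 5 counts against 19 in wild type, a ratio of 0.319 (95% interval 0.093 to 0.882, adjusted p = 0.0422). There mul-1 passed the filter through other groups of the fit. Several of these calls rested on single libraries. irg-4 was lost without replicate 2 of wild type or replicate 1 of pqm-1(ok485) (adjusted p = 0.0829 and 0.0772), and mul-1 with ok485 without replicate 3 of pqm-1(ok485) (adjusted p = 0.102). With rhd90, mul-1 was lost without any 1 of the 6 compared libraries (adjusted p up to 0.148), under DESeq2 (adjusted p = 0.101) and with no filter (adjusted p = 0.066), tir-1 without replicate 2 of wild type or replicate 2 or 3 of pqm-1(rhd90) (adjusted p up to 0.0844), and atf-7 without replicate 2 or 3 of wild type or replicate 1 or 3 of pqm-1(rhd90) (adjusted p up to 0.136) or with no filter (adjusted p = 0.0522). With the replicate number as a block, atf-7 (-0.12, adjusted p = 0.0452) and C17H12.8 (0.36, adjusted p = 0.0455) also passed between pqm-1(ok485) and wild type. Without the block C17H12.8 was at 0.36 ± 0.20 there (adjusted p = 0.143), and passed with no filter (adjusted p = 0.0441) and without replicate 2 of wild type or replicate 1 of pqm-1(ok485) (adjusted p = 0.0329 and 0.0415), and with rhd90 it passed without replicate 2 of wild type or replicate 1 of pqm-1(rhd90) (adjusted p = 0.0465 and 0.0365). irg-5 was at -2.87 with rhd90 (adjusted p = 0.144), and passed with no filter (adjusted p = 0.0405) and with only the compared groups (adjusted p = 0.00506).

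Against the ceh-60 mutant of day 1, 2 of the 10 genes were higher in the ok485 double mutant (14% of all genes tested passed, 8.21% higher), tir-1 (0.44 ± 0.12, adjusted p = 0.0219) and nsy-1 (0.23 ± 0.06, adjusted p = 0.0213). In the rhd90 double mutant 2 were higher and 1 lower (9.85% passed, 6.87% higher and 2.98% lower). C17H12.8 was higher by 0.72 ± 0.19 (adjusted p = 0.0281), tir-1 by 0.47 ± 0.12 (adjusted p = 0.0242), and mul-1, with 25 counts against 71, had a ratio of 0.365 (95% interval 0.221 to 0.583, adjusted p = 0.0165). Each of these 5 calls was lost on leaving out single libraries of the compared groups. For tir-1 and nsy-1 in the ok485 double mutant these were replicate 2 of ceh-60 and replicate 2 of the double mutant, and for nsy-1 also replicate 1 of ceh-60 and replicate 3 of the double mutant (adjusted p up to 0.14). irg-4 (1.46, adjusted p = 0.0676) passed there without replicate 1 or 2 of the rhd90 double mutant (adjusted p = 0.0336 and 0.0348), and mul-1 (0.79, adjusted p = 0.0941) without replicate 1 of pqm-1(ok485) (adjusted p = 0.0389). irg-4 also passed with no filter (adjusted p = 0.00393), as did C17H12.8 (0.45, adjusted p = 0.0256), which passed with only the compared groups too (0.46, adjusted p = 0.0444).

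In the rhd90 double mutant C17H12.8 was lost without any ceh-60 replicate or replicate 1 or 3 of the double mutant (adjusted p up to 0.123). tir-1 was lost there without replicate 2 or 3 of ceh-60 or any replicate of the double mutant (adjusted p up to 0.134), and mul-1 without replicate 3 of ceh-60 or replicate 1 or 3 of the double mutant (adjusted p up to 0.084).

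Other genes of the pathway were described from lists of known members. The lists here and in the next paragraphs were chosen with earlier results of these data known. Their counts are therefore descriptions, and not tests against the shares of all genes printed beside them. Of 24 regulators of p38 signalling or members of parallel kinase branches, 9 rose and none fell with ceh-60 loss on day 1 (median log2 fold change 0.29, against -0.03 over all genes), 7 rose on day 4 (0.16 against 0), 4 with pqm-1(ok485) (0.03 against -0.01) and 9 with pqm-1(rhd90) (0.19 against 0), with none falling. Of all genes tested, 16.1% were higher on day 1, 16.1% on day 4, 4.76% with pqm-1(ok485) and 9.79% with pqm-1(rhd90). The count with pqm-1(ok485) was 2 without replicate 2 or 3 of pqm-1(ok485) or replicate 2 of its double mutant, and that with pqm-1(rhd90) was 5 without replicate 3 of pqm-1(rhd90). Higher in all 4 comparisons were 3 of them: vhp-1, which encodes a MAP kinase phosphatase that acts on PMK-1 and KGB-1, the JNK-like kinase gene kgb-1, and irg-7, an infection response gene. vhp-1 was at 25.8 ± 1.88 CPM (SD, n = 3) in wild type day 1 and 44.1 ± 2.77 in the mutant (log2 0.75 ± 0.08, adjusted p = 1.93e-05), and kgb-1 at 19.5 ± 2.64 and 38.5 ± 3.98 (0.96 ± 0.10, adjusted p = 1.16e-05). The day 4 call of vhp-1 (0.27 ± 0.08, adjusted p = 0.0237) was lost without replicate 1 or 2 of wild type or replicate 1 or 3 of the mutant (adjusted p up to 0.123). With pqm-1(ok485), kgb-1 was lost without 5 of the 6 compared libraries (all but replicate 1 of pqm-1(ok485); adjusted p up to 0.0928), and irg-7 without replicate 2 or 3 of pqm-1(ok485) or replicate 2 of the double mutant (adjusted p up to 0.101).

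The Tribbles-like pseudokinase gene nipi-3 rose on day 1 (0.63 ± 0.05, adjusted p = 5.52e-07), with pqm-1(ok485) (0.45 ± 0.06) and with pqm-1(rhd90) (0.77 ± 0.06), and was at 0.12 ± 0.04 on day 4, which did not pass (adjusted p = 0.0697) except with the block within each day (adjusted p = 0.0269). On day 4 irg-7 rose by 0.92 ± 0.13 (adjusted p = 0.000213), and fshr-1, which encodes a leucine-rich repeat receptor of innate immunity, by 0.53 ± 0.08 (adjusted p = 0.000214). The bZIP gene cebp-1 rose there by 0.56 ± 0.12 (adjusted p = 0.00459). Of the p38 paralog genes, pmk-2 and pmk-3 passed in none of the 4 comparisons, with pmk-3 at 0.30 ± 0.10 on day 1 (adjusted p = 0.0554, and 0.0117 with the block within each day). pmk-3 also passed on day 1 without replicate 1 of wild type day 1, replicate 3 of ceh-60 day 1 or replicate 3 of ceh-60 day 4 (adjusted p between 0.0381 and 0.0449). The MAP kinase kinase gene mek-1 rose with pqm-1(rhd90) (0.28 ± 0.06, adjusted p = 0.00804), a call lost without replicate 3 of pqm-1(rhd90) (adjusted p = 0.0558), and with pqm-1(ok485) it was at 0.20 ± 0.06 (adjusted p = 0.0601, and 0.0244 with the replicate block).

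Of 10 further genes known as PMK-1 targets, 7 rose on day 1 (median 1.27), 8 on day 4 (1.35), 7 with pqm-1(ok485) (1.32) and 6 with pqm-1(rhd90) (1.57), and none fell. The shares of all genes tested that rose were 16.1%, 16.1%, 4.76% and 9.79% in that order. clec-67, lys-2, dod-22 and cld-9 rose in all 4, although dod-22 was lost with pqm-1(ok485) without replicate 2 or 3 of the double mutant (adjusted p = 0.0898 and 0.0781). The lectin gene clec-67 went from 5.004 ± 1.31 CPM (SD, n = 3) in wild type day 1 to 37.3 ± 9.64 in the mutant and from 3.04 ± 0.623 to 70.3 ± 6.95 on day 4. lys-2, a lysozyme gene, went from 63.7 ± 7.2 to 252.2 ± 3.02 CPM on day 1, and from 121.9 ± 10.9 to 184.6 ± 8.52 on day 4. In the pqm-1(ok485) background cld-9 was at 10.1 ± 1.07 CPM with ceh-60 and 23.3 ± 0.724 without it, and in the pqm-1(rhd90) background at 10.2 ± 0.14 and 34.9 ± 4.63.

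Some genes of infection responses that do not depend on PMK-1 rose as well, in a list that holds both readouts and transcription factor genes. Of 6 listed, 5 rose on day 1 (median 1.02), 4 on day 4 (0.29), 2 with pqm-1(ok485) (0.24) and 4 with pqm-1(rhd90) (1.13), with none falling. Over all genes tested, 16.1%, 16.1%, 4.76% and 9.79% rose in these comparisons. The day 4 count was 2 without replicate 2 of wild type day 4. irg-1, a readout of the bZIP factor ZIP-2, was at 0.427 ± 0.0872 CPM (SD, n = 3) in wild type day 1 and 3.86 ± 0.952 in the mutant (log2 3.14 ± 0.26, adjusted p = 1.54e-06). irg-8 was at 171.5 ± 2.11 and 529.9 ± 53.4 CPM (1.60 ± 0.10, adjusted p = 2.56e-07), and both rose in all 4 comparisons. irg-2 rose on day 1 (2.02 ± 0.19, adjusted p = 6.69e-06) and was at -0.43 ± 0.17 on day 4 (adjusted p = 0.0842, and 0.0221 with the block within each day), where it passed without replicate 2 of wild type day 1 (adjusted p = 0.0382). hlh-30, which encodes the worm TFEB transcription factor, rose on day 1 by 0.25 ± 0.05 (adjusted p = 0.00198).

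Markers of other tissues moved in part alongside. On day 1, 3 of 4 body wall muscle markers and 3 of 4 pharynx markers rose with ceh-60 loss, with summed levels of 696.1 to 1031 CPM in wild type and 1229 to 1696 in the mutant for body wall muscle, and 6.14 to 10.3 and 13.0 to 17.7 for the pharynx. Of 4 germline markers 1 fell, and their sums were 2830 to 2851 and 2608 to 2761 CPM. On day 4 none of the body wall muscle markers passed, 3 of 4 pharynx markers rose, and 1 germline marker fell. Of 4 neuron markers 1 rose on each day, and of the 3 epidermis markers tested 1 rose on day 1 and none on day 4. With pqm-1(ok485) no marker of these tissues rose, and 1 of body wall muscle and 1 of pharynx fell, while with pqm-1(rhd90) none passed. Of all genes tested, 25.5% passed on day 1, 24.4% on day 4, 8.97% with pqm-1(ok485) and 11.9% with pqm-1(rhd90). The part of tissue composition in the values of the 10 genes was not tested.

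Genes whose levels over the 8 groups were most like each target were found by the root mean square difference between log2 CPM group means, each centred on its own mean, among 8248 or 8249 genes with a mean of at least 5 CPM. C17H12.8 had the closest match, the cathepsin Z gene cpz-2, with a difference of 0.11, against a median of 1.08 over all candidates. cpz-2 rose by 2.32 ± 0.07 on day 1 and 1.96 ± 0.07 on day 4, rises that follow from its choice by likeness over these same groups. The genes nearest to the other targets were less close, with differences of 0.34 for asns-2 from K08D8.5, 0.34 for gpdh-1, which encodes a glycerol-3-phosphate dehydrogenase, from mul-1, 0.49 for Y69H2.3 from irg-5 and 0.71 for clec-67 from irg-4. The next nearest were cld-9 (0.27) and R07E3.1 (0.30) for C17H12.8, and lact-4 (0.38) and daao-1 (0.39) for K08D8.5.

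Among the targets themselves the nearest pair was K08D8.5 and mul-1, at 0.58, and the farthest was K08D8.5 and irg-4, at 1.48. The 5 targets thus did not share a single pattern over the groups. CPM were logged after adding 0.5, which narrows the spread of a gene as rare as mul-1. Its group means, from 0.0891 CPM in pqm-1(rhd90) to 2.55 in ceh-60 day 4, differed 28.6-fold. Its centred log2 levels after that step ran only from -1.04 to 1.31. The part of this offset in the distances of mul-1 from K08D8.5 and gpdh-1 was not tested. Among the cascade genes pmk-1 and atf-7 were nearest, at 0.08. These are descriptions over 8 group means, and 4 of the 5 targets share a ceh-60 difference that passed.

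Some genes within 10000 bp of a target rose too. On day 1, 10 of 24 tested were higher (16.1% of all genes tested), on day 4, 13 of 24 were higher (16.1%) and 1 was lower, with pqm-1(ok485) 6 of 27 were higher (4.76%) and with pqm-1(rhd90) 8 of 27 (9.79%). C17H12.6, which lies 434 bp from C17H12.8, rose in all 4 comparisons, by 2.09 ± 0.24 on day 1 (adjusted p = 2.82e-05), 1.26 ± 0.19 on day 4, 1.90 ± 0.28 with pqm-1(ok485) and 2.09 ± 0.29 with pqm-1(rhd90). Also higher in all 4 were H20E11.1, 9502 bp from C17H12.8, ugt-65, a UDP-glucuronosyltransferase gene 3269 bp from irg-4, and dct-17 and F35E12.9, 6231 and 2847 bp from irg-5. With pqm-1(ok485) the calls of H20E11.1 and F35E12.9 were not firm, being lost with only the compared groups (adjusted p = 0.0711 and 0.0819) and without 6 and 9 of the 12 libraries (adjusted p up to 0.116 and 0.141), and that of H20E11.1 with pqm-1(rhd90) was lost without replicate 1 of pqm-1(rhd90) (adjusted p = 0.0597). dct-17 rose by 2.48 ± 0.25 on day 1 and 2.88 ± 0.12 with pqm-1(rhd90), where irg-5 itself did not pass without a block.

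Near K08D8.5, K08D8.4 at 649 bp and K08D8.3 at 3988 bp rose in 3 of the 4 comparisons each, the day 4 call of K08D8.3 being lost without replicate 2 or 3 of wild type or replicate 1 or 3 of the mutant (adjusted p up to 0.134), and irg-6 at 645 bp rose on day 4 (1.76 ± 0.30, adjusted p = 0.000788). Near mul-1, F49F1.5 at 943 bp rose on day 1 (2.08 ± 0.28) and day 4 (4.21 ± 0.25), F49F1.7 at 359 bp and drd-50 at 2163 bp rose on day 4 (2.77 ± 0.32 and 2.04 ± 0.18), and none of these passed in a pqm-1 background without a replicate block. With the block F49F1.7 and drd-50 passed with pqm-1(ok485) (adjusted p = 0.0169 and 0.0373). In the other direction, dpy-26 near irg-4 fell on day 4 (-0.13 ± 0.04, adjusted p = 0.0281). K08D8.3 was at -0.50 ± 0.16 with pqm-1(ok485), opposite to its rises elsewhere, which did not pass (adjusted p = 0.0782) but did with the replicate block (-0.49, adjusted p = 0.0112), with that block within each allele (adjusted p = 0.0134), with no filter (adjusted p = 0.03), with only the compared groups (adjusted p = 0.0221), under DESeq2 (adjusted p = 0.0472) and without replicate 1 or 2 of the rhd90 double mutant (adjusted p = 0.00383 and 0.0438).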

How the data were processed

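The 24 libraries hold RNA of whole animals, and groups and replicate numbers came from the sample titles. STAR 2.5.4 and featureCounts of Subread are named in the submitters' processing notes. The authors deposited raw read counts over the exons of each gene, made by featureCounts 1.5.2 against WormBase release 260 per the file headers, with strand ignored and multi-mapping or ambiguous reads left out. The TruSeq v2 libraries of the labels' protocols do not mark strand. Reads of near-identical genes and of overlapping genes are therefore missing from the counts.

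Counts were tested with edgeR 4.0.16 (limma 3.58.1, R 4.3.3): filterByExpr by group, TMM scaling and quasi-likelihood F-tests with Benjamini-Hochberg adjustment over all genes tested, threshold 0.05. The 3 fits held the first table (12 libraries, 13137 genes), the second (12, 13324) and day 1 (18, 13589), and gave 15 comparisons. SE were derived from the F statistic. The method was tested on simulated data with the same spread for every gene and no effect of the replicate number. Changes were planted only in better counted genes. That test therefore does not cover genes as variable as irg-5 or as rare as mul-1 in pqm-1(rhd90). Alternatives were DESeq2 1.42.0, RLE size factors, no filter, only the compared groups, omission of each library in turn, and a fit with the replicate number blocked. A block within each day or allele was added after seeing the data. Intervals on counts are exact at 95% and cover counting error only. The CPM for likeness and pairing were logged after adding 0.5.

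The titles give groups the same replicate numbers. Same-numbered libraries deviated together (correlation over 0.1 for every number) in the 4 comparisons of ceh-60 loss and for pqm-1(ok485) against wild type, where the correlations were 0.11, 0.11 and 0.16. The members and gene lists were chosen with earlier results of these data known. Besides the 10 genes, those named are ceh-60 and pqm-1, up to 3 rising and 3 falling genes of each list per comparison of ceh-60 loss, the 3 genes most like each target and passing genes within 10000 bp of one. pmk-2, pmk-3, mek-1 and mtl-2 fall outside that rule and were named after their values had been seen. Marker lists had 8 genes for intestine and 4 each for germline, body wall muscle, neurons, epidermis and pharynx.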

Additional observations from a re-analysis of the deposited data

Results flagged for a closer look

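For 2 of the 10 genes ceh-60 loss acted differently on day 4 than on day 1 by a test of the difference itself, with edgeR and adjustment over all genes. Of all genes tested, 4.04% passed that test. For K08D8.5 the log2 difference was 1.018 ± 0.156 (adjusted p = 0.00273): its libraries ran from 5.90 to 6.91 CPM (wild type) and from 10.4 to 14.9 CPM (mutant) on day 1, and from 13.96 to 15.6 and from 57.9 to 60.03 CPM on day 4. For sek-1 it was -0.417 ± 0.086 (adjusted p = 0.0163), with the mutant above wild type on day 1 and below it on day 4 in every library. Taken alone, that day 4 change of sek-1 did not pass in the main fit. Of 8 intestinal markers, 6 fell and 1 rose with age in wild type (54.8% of all genes tested passed). In the mutant 6 fell and 2 rose (52.6% passed). The part of these markers in the 2 differences was not tested.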

How the results depend on the processing

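No result changed direction under any alternative while called in either fit. The count of the 10 genes passing moved by over 1.5 times for the age difference (4 with the replicate block within each day, against 2), between the pqm-1 alleles with ceh-60 intact (1 with only the compared groups, a fit in which mul-1 did not pass the filter, against 3), between the double mutants (4 with the replicate block, against 2), for pqm-1(rhd90) against wild type (5 with the replicate block, against 3) and for the ok485 double mutant against ceh-60 (4 with no filter and 4 with the replicate block, against 2). Leaving out 1 library at a time gave 5 to 5 genes for ceh-60 on day 1, 5 to 6 on day 4, 2 to 2 for the age difference, 3 to 5 and 5 to 6 for age in wild type and mutant, 3 to 5 with ok485 and 3 to 5 with rhd90. For the alleles it gave 1 to 3 and, in the double mutants, 1 to 3. Across the tables it gave 3 to 4 and 0 to 3 against wild type, 0 to 3 and 0 to 3 against ceh-60, and 0 to 0 for both differences of the ceh-60 effect. The replicate block also added calls in comparisons where same-numbered libraries did not correlate over 0.1 for every number. It added irg-4 to the age difference (0.91, adjusted p = 0.0465), to age in wild type and to the ok485 double mutant against ceh-60. To both age and both allele comparisons and to pqm-1(rhd90) against wild type it added irg-5. C17H12.8 was added to the double mutants and to 2 comparisons across tables. Between the alleles only number 3 fell short, with correlations of 0.57, 0.43 and 0.02 with ceh-60 intact and 0.54, 0.31 and 0.05 in the double mutants. Over all comparisons the replicate block ended no call of the 10 genes. The block within each day added irg-4 and tir-1 to the age difference. The cause of these moves was not tested. Depth limits mul-1, which had 1 to 92 reads per library. Counts over all genes moved too without 1 library. They ran from 1899 to 3708 for ceh-60 on day 1 and from 2450 to 3259 on day 4. For the age difference they were 306 to 567, with ok485 738 to 1224 and with rhd90 1072 to 2216. Between the alleles they were 187 to 2186, and 947 to 2940 in the double mutants. Against ceh-60 they were 680 to 2505 for the ok485 and 473 to 2532 for the rhd90 double mutant. Counts over all genes under the other alternatives are not given here.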
